A study of Homo sapiens with 5 samples.

Results

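Hairpins for which the nCounter Human v2 miRNA panel carries a separate probe for each arm were examined. Members were all human single-name probes named for the 5p or the 3p arm whose partner arm of the same name was also on the panel, apart from a fixed list of miRNA numbers that was left out. This gave 44 pairs, or 88 of the 734 miRNA probes. On this assay a reporter barcode bound to each target is counted directly, without amplification. RNA came from Caco2, an established line of human colon carcinoma cells that polarise into an epithelium in culture. Cells were infected and selected with a non-target shRNA (NT, replicates 1 and 3, n = 2) or with 1 shRNA directed at PLEKHA7 (shPLEKHA7, replicates 1, 2 and 3, n = 3), in independent infections. Group membership followed the sample titles, because the source field of shPLEKHA7 replicates 2 and 3 names another PLEKHA number. PLEKHA7 itself is not among the probes, so the depletion was not analysed here.

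A miRNA is cut from a primary transcript by Drosha as a hairpin and then by Dicer as a duplex of the 5p and the 3p arm. Argonaute keeps one strand of the duplex as the guide, and the other strand is usually degraded, so the level of the arms can differ widely although both come from the same transcript. The arms have different seeds, the bases at positions 2 to 8 that pair with target mRNAs, and therefore different targets. PLEKHA7 is a protein of the adherens junction that has been described as binding the Drosha complex at junctions. The comparison asked whether the balance of the arms differed between shPLEKHA7 and NT cells. A raw 5p to 3p ratio also carries the capture efficiency of the probes, so a ratio of 1 does not mean equal molecules. Its change between groups does not depend on that efficiency or on lane scaling where both arms stand far above background. Background was not subtracted from the ratios in the main fit, so it still enters the ratios of arms near the limit.

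Depth and background were set per lane. All miRNA probes summed to between 32138 and 58298 counts in a lane. The limit of detection, taken as the mean plus 2 SD of the 8 negative-control probes, was lowest in shPLEKHA7 replicate 2 and highest, at 24.45 counts, in shPLEKHA7 replicate 1. The markers of the line were present, with all 5 epithelial miRNAs (miR-200a, miR-200b, miR-200c, miR-141 and miR-429) and 2 of 3 intestinal ones above the limit in all 5 lanes. Of 4 blood markers, miR-451, miR-144 and miR-150 were above it in no lane and miR-223 in all, with a summed count of the list of 52 and 76 in NT and 67 to 97 in shPLEKHA7. Of 4 stromal and endothelial markers, 2 were above the limit in all lanes and miR-143 in none, with sums of 81 and 97 in NT and 67 to 139 in shPLEKHA7. The numbers that end the deposited column names, if they are lane positions, place both NT samples before all shPLEKHA7 samples, so position and group cannot be told apart.

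Only 5 of the 44 hairpins, miR-151, miR-361, miR-362, miR-423 and miR-532, had both arms above the limit in all 5 lanes. With the limit at the mean plus 3 SD, 3 of them remained, and miR-361 and miR-532 did not. For 4 of these 5 hairpins a RefSeq entry (GRCh38.p14) was found under the name used on the panel, and for miR-151 none was. The mature sequences of the 4 are shown because the ratio results rest on them, with the seed in capitals.
miR-361-5p: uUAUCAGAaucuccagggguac
miR-361-3p: uCCCCCAGgugugauucugauuu
miR-362-5p: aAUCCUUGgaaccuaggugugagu
miR-362-3p: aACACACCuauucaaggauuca
miR-423-5p: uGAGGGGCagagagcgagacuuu
miR-423-3p: aGCUCGGUcugaggccccucagu
miR-532-5p: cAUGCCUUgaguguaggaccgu
miR-532-3p: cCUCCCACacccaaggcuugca

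The longest unbroken Watson-Crick stretch between the arms was 9 bases in miR-361, 8 in miR-362 and miR-423 and 6 in miR-532. The hairpin of miR-423 lies at chr17:30117079-30117172 on the plus strand, within the span of NSRP1. That of miR-361 lies at chrX:85903636-85903707 on the minus strand, within CHM. miR-532 (chrX:50003148-50003238) and miR-362 (chrX:50008964-50009028) both lie on the plus strand within CLCN5, in a cluster with miR-188. Whether these positions are exonic or intronic was not analysed here. By name 70 of the 88 arms had a RefSeq entry, and 66 of these were identical to the target sequence in the deposited table.

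A second set of sequences shows miR-574, with an arm called between the groups, and examples of hairpins with only 1 arm above the limit. These are miR-296 and miR-615 on the 5p side and miR-548b on the 3p side.
miR-574-5p: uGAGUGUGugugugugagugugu
miR-574-3p: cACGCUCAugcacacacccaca
miR-296-5p: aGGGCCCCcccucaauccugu
miR-296-3p: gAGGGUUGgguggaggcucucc
miR-615-5p: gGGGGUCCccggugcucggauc
miR-615-3p: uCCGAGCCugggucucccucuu
miR-548b-5p: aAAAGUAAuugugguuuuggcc
miR-548b-3p: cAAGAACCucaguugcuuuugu

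In these pairs, as in all 33 pairs with an entry for both arms, the arms had different seeds. Across all matched arms 1 seed was shared, UGGGAUC of miR-450b-3p and miR-769-3p, and neither arm was above the limit in any lane.

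Most arms were not measurably present. Of 88 arms, 18 (20.5%) were above the limit in all 5 lanes, 10 of them 5p and 8 of them 3p, against 6 of 80 viral miRNA probes (7.5%), whose targets are not expected in this line. In 16 hairpins neither arm was above the limit in any lane. These included miR-129, miR-146b, miR-339, the heart and muscle miRNA miR-499, and miR-886, a name since given up because its transcript is a vault RNA relative. In 15 more, no arm was above the limit in all lanes but at least 1 arm was in some.

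**Figure D1:**
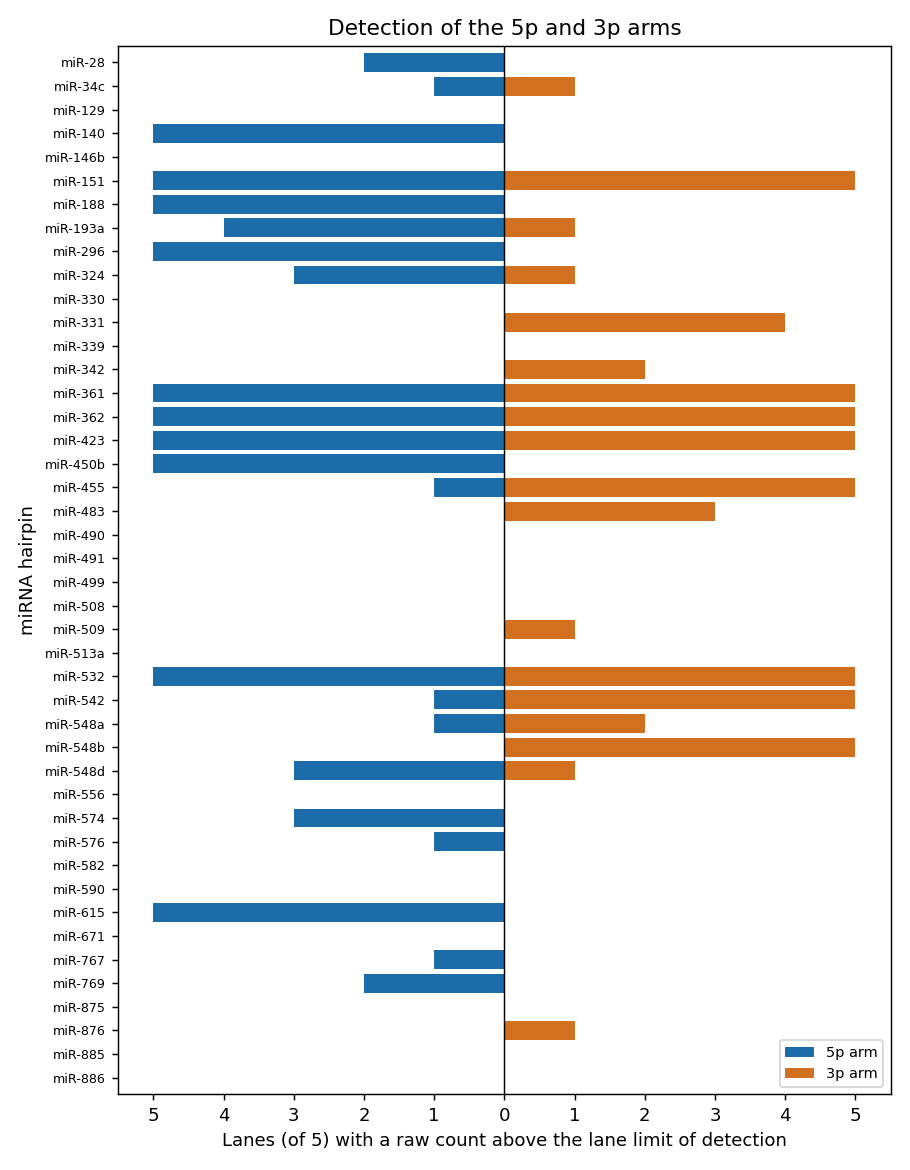
Number of the 5 lanes in which the raw count of each arm exceeded the lane's limit of detection, 5p to the left and 3p to the right, for the 44 hairpins. Bars reach 5 on both sides in 5 hairpins and are missing on both sides in 16.

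The share of arms above the limit varied by lane. Of 5p arms, 27.3% exceeded it in NT replicate 1 and 31.8% in NT replicate 3. The shPLEKHA7 lanes had 27.3%, 45.5% and 34.1% of 5p arms above it. For 3p arms the shares were 29.5% and 22.7% in NT and 22.7%, 27.3% and 27.3% in shPLEKHA7. Groups overlapped for both arms. Viral probes, counted the same way, stood at 13.8% and 8.8% in NT and at 12.5%, 25.0% and 16.2% in shPLEKHA7. The highest 5p share and the highest viral share thus came from the same lane, shPLEKHA7 replicate 2, which had the lowest limit. The mean number of 5p arms above the limit was higher by 2.7 in shPLEKHA7 with all lanes, by 0.5 without that lane, by 4.5 without shPLEKHA7 replicate 1 and by 3.7 without NT replicate 3. For 3p arms the difference was -0.2, and it ran from -1.7 to 1.3 with a lane left out. All 88 arms together, background included, took 3.29% and 3.27% of the miRNA count in NT and 3.9%, 3.87% and 3.53% in shPLEKHA7.

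The arm ratio was first described for the 5 hairpins measured on both sides. By count the 5p arm led in every lane in miR-151, miR-361 and miR-423, the 3p arm led in every lane in miR-532, and miR-362 was near balance, with the 3p arm ahead in 4 of 5 lanes. No ratio passed limma on log2 ratios, adjusted over the 6 pairs of the panel with both arms above the limit, of which 1 lies outside the member rule (0 of 6 called, 0%). The largest difference was in miR-423, whose 5p to 3p ratio was lower in all 3 shPLEKHA7 lanes than in both NT lanes. Non-overlap of this kind occurred in 1 of the 6 pairs (16.7%).

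**Figure D2:**
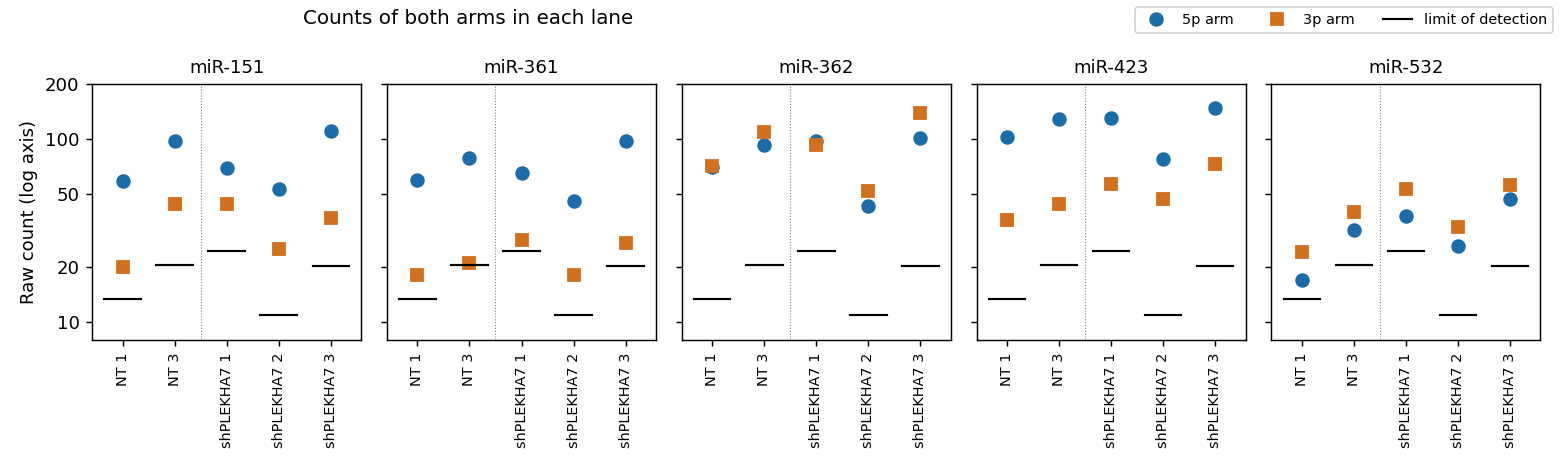
Raw counts (log axis) of the 5p arm (circles) and 3p arm (squares) in each lane, with the lane's limit of detection as a black bar, for the 5 hairpins measured on both arms. The arms of miR-362 lie close together, and miR-361-3p lies just above the limit in NT replicate 3.

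miR-423, whose arms are both found in many tissues, had 5p counts of 102 and 128 in NT replicates 1 and 3 and of 130, 78 and 147 in shPLEKHA7 replicates 1, 2 and 3. The 3p counts were 36 and 44 in NT and 57, 47 and 73 in shPLEKHA7. Counts overlapped for the 5p arm and did not for the 3p arm before scaling. After scaling this was reversed. Normalized 5p counts were 136.6 and 130.9 in NT and 104.3, 95 and 121.6 in shPLEKHA7. The 3p counts were 48.2 and 45 against 45.7, 57.3 and 60.4. Normalized counts did not overlap in 37.3% of all tested probes. The 5p to 3p ratio of raw counts was 2.83 and 2.91 in NT and 2.28, 1.66 and 2.01 in shPLEKHA7, so the groups were apart. On the log2 scale the ratio was 1.52 ± 0.03 (SD, n = 2) in NT and 0.98 ± 0.23 (SD, n = 3) in shPLEKHA7. The difference was -0.54 (SE 0.23, unadjusted 95% interval -1.04 to -0.05), a ratio 0.69 times that of NT. This SE, and with it the interval and the limma p, rests on a variance pooled over all measured pairs. Limma gave an adjusted p of 0.188 (unadjusted p = 0.0313), and the 2-sided exact permutation p was 0.1, the smallest that 10 splits of 2 against 3 lanes can give. The difference therefore did not pass. It ran from -0.65 to -0.42 with a lane left out, where the limma adjusted p ran from 0.0592 to 0.886. With each lane's median ratio subtracted it was -0.27 (limma adjusted p = 0.608). That median was taken over the measured pairs, miR-423 among them, so any shift they share was removed with it.

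As a share of the counts of both arms, miR-423-5p took 73.9% in NT replicate 1 (exact 95% interval 65.8% to 81%) and 74.4% in NT replicate 3 (67.2% to 80.8%). In shPLEKHA7 replicates 1, 2 and 3 it took 69.5% (62.4% to 76%), 62.4% (53.3% to 70.9%) and 66.8% (60.2% to 73%). The intervals, which cover counting error only, overlap between the groups.

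**Figure D3:**
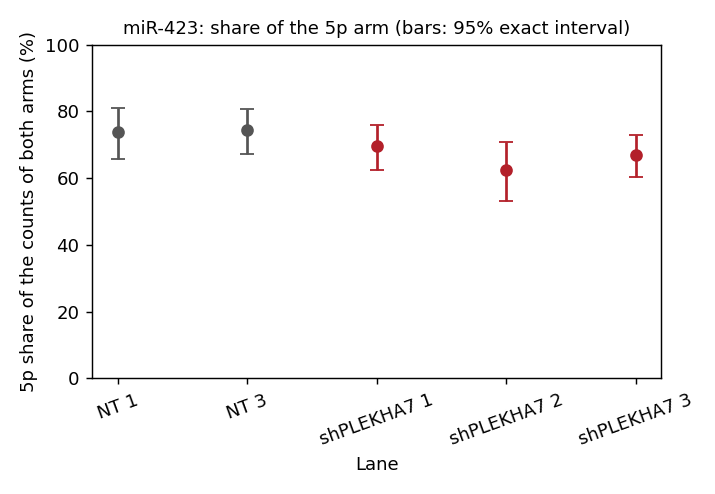
Share of the 5p arm in the counts of both miR-423 arms (%) by lane, with exact 95% binomial intervals. Both NT points lie above 73%, the shPLEKHA7 points between 62.4% and 69.5%, and the intervals overlap.

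The opposite signs of the arms underlie this value. miR-423-5p had a log2 fold change (shPLEKHA7 minus NT, edgeR quasi-likelihood test) of -0.32 (SE 0.26, adjusted p = 0.541) and miR-423-3p of 0.22 (SE 0.27, adjusted p = 0.696). Neither passed. Their signs held under all scalings tried, where the 5p arm ran from -0.49 to -0.09 and the 3p arm from 0.05 to 0.45.

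miR-361, encoded within the choroideremia gene CHM, had 5p counts of 60 and 79 in NT and of 65, 46 and 97 in shPLEKHA7. Its 3p counts of 18 and 21 in NT and 28, 18 and 27 in shPLEKHA7 stood close to the limits, with 21 against 20.59 in NT replicate 3. The ratio was 3.33 and 3.76 in NT and 2.32, 2.56 and 3.59 in shPLEKHA7, and the groups overlapped through shPLEKHA7 replicate 3. The log2 difference was -0.35 (SE 0.23, interval -0.84 to 0.14, exact permutation p = 0.3), and from -0.54 to -0.22 with a lane left out. The fold change was -0.35 (SE 0.27) for the 5p arm and -0.02 (SE 0.32) for the 3p arm. The sign of the 3p arm turned under the housekeeping, total-count, DESeq2 and tested-probe TMM scalings and after background subtraction.

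miR-151, encoded within the focal adhesion kinase gene and known from liver cancer invasion, had 5p counts of 59 and 97 in NT and of 69, 53 and 111 in shPLEKHA7. Its 3p counts were 20 and 44 in NT and 44, 25 and 37 in shPLEKHA7. The ratio of 2.95 and 2.2 in NT lay within the range of the shPLEKHA7 lanes (1.57, 2.12 and 3). The log2 difference was -0.24 (SE 0.23, interval -0.73 to 0.25, exact permutation p = 0.5). It ran from -0.48 without shPLEKHA7 replicate 3 to -0.02 without shPLEKHA7 replicate 1. In single arms the fold changes were -0.34 (SE 0.26) for 5p and -0.18 (SE 0.27) for 3p, of which the 3p arm turned positive under total-count scaling (0.06).

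miR-362 and miR-532 belong to the CLCN5 cluster. miR-362-5p had counts of 70 and 92 in NT and of 97, 43 and 101 in shPLEKHA7, against 71 and 109 and then 92, 52 and 139 for miR-362-3p. Its ratio was 0.99 and 0.84 in NT and 1.05, 0.83 and 0.73 in shPLEKHA7. The log2 difference of -0.09 (SE 0.23, interval -0.58 to 0.4, exact permutation p = 0.8) was smaller than the SD among the shPLEKHA7 lanes, 0.27. The fold changes of its arms were -0.38 (SE 0.26) for 5p and -0.29 (SE 0.26) for 3p.

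miR-532-5p had counts of 17 and 32 in NT and of 38, 26 and 47 in shPLEKHA7, and miR-532-3p of 24 and 40 and then 53, 33 and 56. The ratio was 0.71 and 0.8 in NT and 0.72, 0.79 and 0.84 in shPLEKHA7, the narrowest spread of the 5 hairpins in shPLEKHA7. The log2 difference was 0.05 (SE 0.23, interval -0.44 to 0.54, exact permutation p = 0.7). Both arms leaned the same way, with fold changes of 0.26 (SE 0.28) for 5p and 0.23 (SE 0.27) for 3p, and neither passed. These hairpins of the same cluster thus had arm fold changes of opposite sign, which was not tested as a difference.

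**Figure D4:**
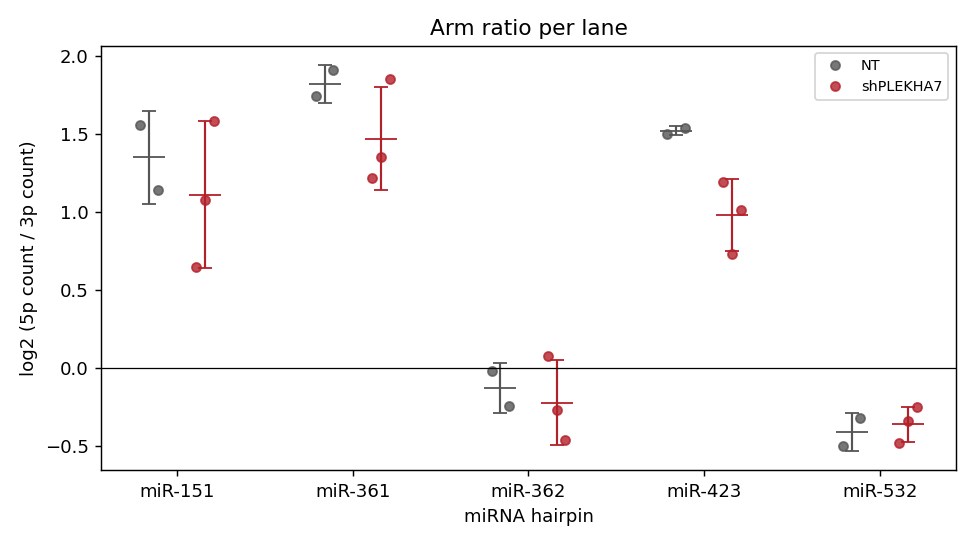
log2 of the 5p to 3p count ratio in each lane (points) with group mean and SD (bars), NT in grey and shPLEKHA7 in red. The groups are apart in miR-423 and overlap in the other 4 hairpins.

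Over the 5 hairpins the median log2 ratio difference was -0.24, with 4 of 5 below 0, and over all 6 measured pairs it was -0.17, with 4 of 6 below 0. The median rested on single lanes, at -0.04 without NT replicate 1 and -0.48 without shPLEKHA7 replicate 3.

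Whether single arms differed was tested with edgeR over all 204 probes that exceeded the limit in at least 2 lanes. These tested probes include 15 of the 80 viral probes, which met the same filter. That filter kept 28 of the 88 arms (16 of the 5p and 12 of the 3p arms), and it is met more easily by 3 shPLEKHA7 than by 2 NT lanes. At an adjusted p under 0.05, 0 arms were higher, against 2.94% of tested probes, and 2 were lower, miR-574-5p and miR-28-5p, against 5.88%. At an unadjusted p under 0.05 there were 3 of 28 arms, against 24% of tested probes. DESeq2 called 0 member arms. Without shPLEKHA7 replicate 3 the arms called lower were miR-574-5p, miR-151-5p (log2 fold change -0.59, edgeR adjusted p = 0.0443) and miR-362-3p (-0.58, adjusted p = 0.0379), with 36 of 183 probes called lower in all. The tested arms had a median log2 fold change of 0.02, and all tested probes -0.11. The 5p arms stood at a median of -0.16 and the 3p arms at 0.21, but these are mostly arms of different hairpins. Only 5 hairpins had both arms tested, and in 4 of them both fold changes had the same sign. Normalized counts of the groups did not overlap in 10 of the 28 arms, against 37.3% of all tested probes. The direction of calls over all probes depended on scaling, with 6 higher and 12 lower here, 11 and 9 under total counts, 4 and 2 under the housekeeping scaling and 4 and 29 under spike-in scaling. The median over all tested probes was 0.12, 0.00 and -0.27 under those 3 scalings.

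**Figure D5:**
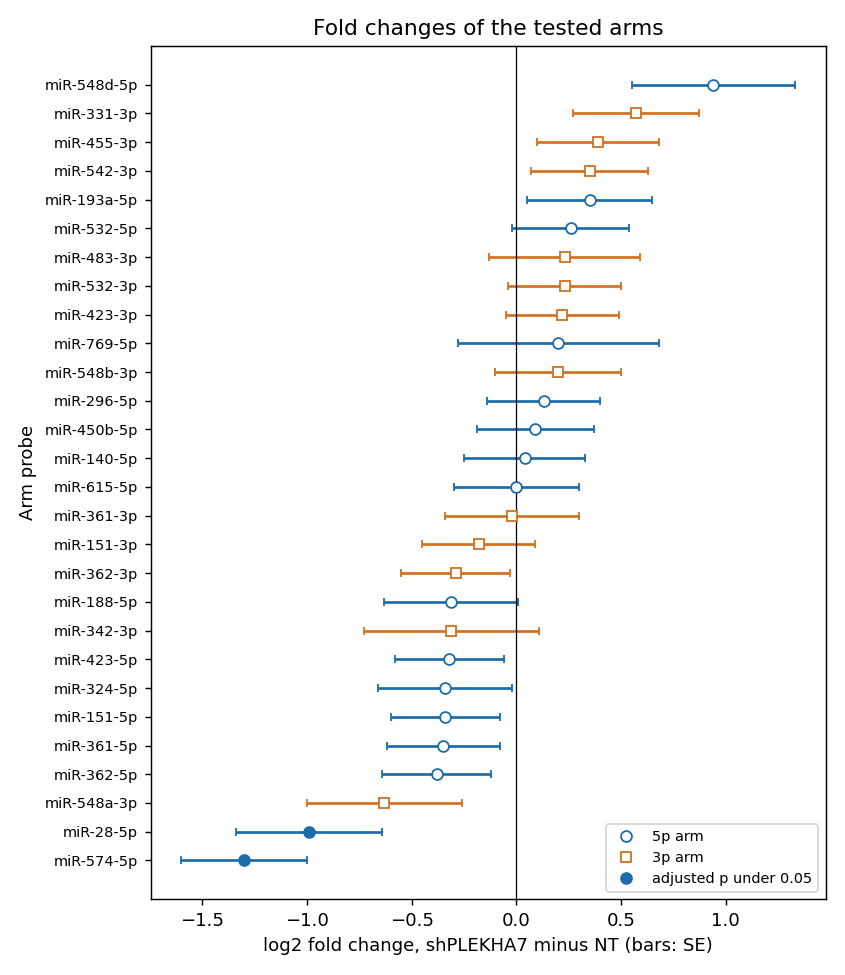
log2 fold change (shPLEKHA7 minus NT) with SE for the 28 tested arms, 5p as circles and 3p as squares. Filled symbols mark an adjusted p under 0.05, reached by miR-574-5p (-1.3) and miR-28-5p. The plotted values of miR-28-5p, miR-548a-3p and miR-548d-5p are fitted values against a group not above background, for which the text gives bounds.

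miR-574-5p, a GU-rich strand from within FAM114A1 (chr4:38868032-38868127, plus strand), had raw counts of 26 and 38 in NT and of 20, 12 and 17 in shPLEKHA7. It exceeded the limit in both NT lanes and in 1 of 3 shPLEKHA7 lanes, replicate 2, so the filter was met through NT. Normalized counts fell from 36.8 ± 2.9 (SD, n = 2) to 14.9 ± 1 (SD, n = 3), and the groups were apart (log2 fold change -1.3, SE 0.30, edgeR adjusted p = 0.00134, and 0.00911 without the filter). Its partner miR-574-3p was above the limit in no lane, at raw counts of 12 and 14 in NT and 18, 11 and 16 in shPLEKHA7. A change in the arm ratio of this hairpin was therefore not measurable, and the fall of the 5p arm went down to levels around background. DESeq2 gave -1.17 with an adjusted p of 0.109, and without NT replicate 3 edgeR gave -1.24 with an adjusted p of 0.0622.

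miR-28-5p is the other arm called. Its hairpin is known for arms with different effects in colorectal cancer cells. The 5p arm had raw counts of 21 and 27 in NT and of 22, 8 and 16 in shPLEKHA7, above the limit in both NT lanes and in no shPLEKHA7 lane. It therefore passed the filter only through NT, where it is high. Normalized counts were 27.9 ± 0.4 (SD, n = 2) in NT and 13.5 ± 4 (SD, n = 3) in shPLEKHA7. As the shPLEKHA7 lanes were not above background, only a bound can be given, and NT was at least 1.7-fold higher against the lane limits (edgeR adjusted p = 0.0496, and 0.141 without the filter). The call was lost in 9 of the 11 alternatives in which the arm was tested. Among these, the edgeR adjusted p was 0.205 without shPLEKHA7 replicate 2, 0.0592 without replicate 3, 0.159 with TMM on the tested probes alone, 0.157 under housekeeping scaling and 0.181 under total counts. miR-28-3p had counts from 3 to 11 and was above the limit in no lane.

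The miR-548 hairpins come from a primate repeat family. miR-548d-5p had 10 and 10 counts in NT and 38, 15 and 21 in shPLEKHA7, above the limit in no NT lane and in all 3 shPLEKHA7 lanes. It passed the filter only through shPLEKHA7, which was at least 1.1-fold higher against the NT limits. It did not pass the test (edgeR adjusted p = 0.0935, and 0.25 without the filter), although without shPLEKHA7 replicate 3 the adjusted p was 0.046. Its partner miR-548d-3p was above the limit in shPLEKHA7 replicate 3 only, at 22 counts, and had 5 to 15 counts in the other lanes. miR-548a-3p showed the reverse pattern of detection, with 17 and 23 counts in NT, both above the limit, and 24, 10 and 15 in shPLEKHA7, all below it. It passed the filter only through NT, which was at least 1.41-fold higher (edgeR adjusted p = 0.303). miR-548a-5p had 10 to 16 counts. miR-548b-3p was above the limit in every lane, at 16 and 26 in NT and 27, 31 and 32 in shPLEKHA7, while miR-548b-5p had 1 to 9 counts and was above it in none.

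In 6 hairpins 1 arm was above the limit in all lanes and the other in none. This gives the ratio of counts a lower bound, the count of the arm above the limit over the lane's limit. The largest was in miR-296, an imprinted miRNA of the GNAS locus, where miR-296-5p had 41 and 67 counts in NT and 73, 55 and 94 in shPLEKHA7. Its 3p arm had 3 to 7 counts. The 5p count was at least 3.06 and 3.25 times the 3p count in NT and at least 2.99, 5.0 and 4.65 times in shPLEKHA7, and these bounds overlapped. Its log2 fold change was 0.13 (SE 0.27), and -0.04 when lanes were scaled to the spike-ins. In miR-615, which lies within HOXC5, the 5p arm had 22 and 57 counts in NT and 64, 38 and 45 in shPLEKHA7, with bounds from 1.64 to 3.45 over the lanes.

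The other bounds were lower. They ran from 1.46 to 2.54 for miR-450b-5p, from 1.26 to 2.36 for miR-140-5p, a cartilage miRNA, from 1.1 to 2.82 for miR-548b-3p and from 1.04 to 1.36 for miR-188-5p. The highest viral probe of a lane had 66 to 91 counts. Of the 6 arms above the limit in these hairpins only miR-296-5p exceeded it, in NT replicate 3 (67 against 66) and shPLEKHA7 replicate 3 (94 against 91). Of these 6 arms, 0 passed edgeR in either direction. In the hairpins measured on both arms, miR-151-3p, miR-361-3p, miR-423-3p and both miR-532 arms were below the highest viral probe in every lane. There miR-423-5p was above it in every lane, and the remaining arms in some lanes only.

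In miR-455 and miR-542 the 3p arm was above the limit in every lane and the 5p arm in 1. miR-455-3p had 19 and 24 counts in NT and 27, 25 and 55 in shPLEKHA7, against 5 and 12 and then 13, 5 and 21 for miR-455-5p. miR-542-3p had 22 and 38 counts in NT and 60, 33 and 52 in shPLEKHA7, against 13 and 10 and then 14, 12 and 15 for miR-542-5p. Fold changes of the 3p arms were 0.39 (SE 0.29) and 0.35 (SE 0.28), and neither passed. Without shPLEKHA7 replicate 3 that of miR-455-3p was 0.02, and without NT replicate 1 that of miR-542-3p was 0.12. Each shPLEKHA7 replicate 3 count of miR-455 was the highest of its arm.

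A few hairpins straddled the limit. miR-193a-5p, from a tumour suppressor hairpin, had 13 and 25 counts in NT, the first just under the limit of 13.41, and 32, 27 and 32 in shPLEKHA7. Its log2 fold change was 0.35 (SE 0.30). miR-193a-3p was at 1 count in 4 lanes and at 14 in NT replicate 1. miR-331-3p had 17 and 20 counts in NT, the second just under the limit of 20.59, and 32, 28 and 44 in shPLEKHA7 (log2 fold change 0.57, SE 0.30, edgeR adjusted p = 0.241), with its 5p arm at 5 to 11 counts. miR-193a-5p and miR-331-3p were each above the limit in 3 of 3 shPLEKHA7 lanes and 1 of 2 NT lanes, and neither passed. Other tested arms that straddled the limit lay on both sides of 0. Their log2 fold changes were -0.34 for miR-324-5p, -0.31 for miR-342-3p, 0.23 for miR-483-3p and 0.2 for miR-769-5p.

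Clusters that hold members were read from 2 lists, which include the member arms themselves. In the CLCN5 cluster 8 of 9 probes were tested and 0 called, against 8.82% of all tested probes. Their median log2 fold change was -0.30 with 3 above 0, and most of them are arms of the members miR-188, miR-362 and miR-532. The probes that are not members were miR-660 (-0.57), miR-501-3p (-0.32) and the joint probe of miR-500 and miR-501-5p (0.05). In the Xq26.3 cluster of miR-424, miR-503, miR-542 and miR-450, where miR-542 and miR-450b are members, 5 of 7 probes were tested. Against 2.94% of all tested probes called higher, 1 was higher here, miR-503 (edgeR adjusted p = 0.000474). Its NT raw counts of 3 and 5 were below the limits, so it entered the test only through its shPLEKHA7 lanes, which were at least 1.2-fold higher against the NT limits. Of 20 single-arm probes whose partner is not on the panel, 1 was tested and 0 were called.

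Sequence features that the choice of members did not use were set beside the counts. In 11 hairpins both arms matched a RefSeq entry by name and at least 1 arm was above the limit in all lanes. The 5p arm had the higher count in every lane in 7 of them and the 3p arm in 3, with miR-362 mixed. In these 10 the higher arm had more A or U among its first 4 bases in 3, fewer in 4 and as many in 3. A weakly paired, A- or U-rich 5′ end is the feature known to favour a strand as guide. The higher arm started with A or U in 4 and the lower arm in 7. As counts of different probes also differ in capture, these shares describe the probes as counted.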

How the data were processed

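Caco2 total RNA was counted on the nCounter Human v2 miRNA assay, 1 lane per sample. The authors deposited raw counts per probe and lane (734 miRNA probes, 8 negative controls, 6 spike-ins and 5 mRNAs) and a normalized signal table. In that deposited signal 100% of human and mRNA values matched, to a tolerance of 0.05, raw counts multiplied by a single lane factor, and viral values were unscaled. Scaling by this deposited factor is called housekeeping scaling here. Its derivation was not checked against the mRNA counts. Export software is not given in the sources used here.

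Computed here, edgeR 4.0.16 (R 4.3.3) ran a quasi-likelihood test on raw counts with TMM over all miRNA probes and group as the only term, for probes above the mean plus 2 SD of the lane's negatives in at least 2 lanes. Its SE is the fold change over the square root of F. limma 3.58.1 was run on log2 5p to 3p ratios of raw counts for pairs above the limit on both arms in all lanes. P-values were Benjamini-Hochberg adjusted over all probes or all such pairs. Single ratios had exact permutation tests. Intervals of ratio differences are limma's, from the spread between lanes pooled over the measured pairs. The SE was 0.23 for each of these pairs. The SE, interval and limma p of a pair thus do not measure the spread of that pair alone. Intervals of shares cover counting error only. Arms above the limit in every lane of 1 group and none of the other have a bound, the group mean over the higher of limit and count in the other, on log2 normalized counts. Scripts were tested on simulated data.

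Members and lists were chosen with earlier results of these data known. Named were pairs measured on both arms, called arms, arms above the limit in every lane of 1 group only, and the largest bounds. The straddling, miR-455 and miR-542 pairs were chosen after their values were seen. Alternatives were scalings, DESeq2 1.42.0 without independent filtering, filters, background subtraction with a floor of 1, a pseudocount of 1, a replicate block and leaving out each lane. Replicate 2 of NT was not analysed here. The deposited baseline and fold columns were not used.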

Additional observations from a re-analysis of the deposited data

How the results depend on the processing

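No arm ratio passed in any of the 15 alternatives, which include a fit without a filter on all 78 arm pairs of the panel and an edgeR arm-by-group interaction. The miR-423 difference stayed negative in all 15. After background subtraction the differences were -0.61 for miR-423, -0.44 for miR-361, -0.31 for miR-151, -0.09 for miR-362 and 0.11 for miR-532. With lane-centred ratios the median difference over the measured hairpins was 0.03, that of miR-151 was 0.03 and that of miR-362 was 0.18. Lanes were centred on the median of the 6 measured pairs, 5 of which are these hairpins. A median difference near 0 is therefore built into that setting, which cannot check the median. With a lane left out, the median ran from -0.48 to -0.04, miR-151 from -0.48 to -0.02, miR-361 from -0.54 to -0.22, miR-362 from -0.23 to 0.03 and miR-532 from -0.04 to 0.14. The number of member arms called lower, 2 in the report, was 1 under housekeeping scaling, total counts, background subtraction and TMM on the tested probes (an alternative chosen after seeing the data). It was 0 under DESeq2 and under the filter on all 5 lanes, which tests neither called arm. Without a filter it was again 2, miR-574-5p and miR-193a-3p, so miR-28-5p was not among them. The call of miR-193a-3p rested on NT replicate 1 alone, with 14 counts there and 1 in each other lane. With a lane left out it ran from 0 (without NT replicate 3) to 3 (without shPLEKHA7 replicate 3, where miR-151-5p and miR-362-3p passed), and the number called higher from 0 to 1. Of single arms, miR-361-3p was at 0.08 under housekeeping scaling, 0.21 under total counts, 0.12 after background subtraction, 0.14 with TMM on the tested probes and 0.10 under DESeq2. miR-151-3p was at 0.06 under total counts and miR-296-5p at -0.04 under spike-in scaling. With a lane left out miR-151-3p ran from -0.53 to 0.24, miR-296-5p from -0.07 to 0.27 and miR-532-5p from -0.01 to 0.54. The cause was not tested. Over all probes the calls, 6 higher and 12 lower, were 1 and 9 without a filter, 1 and 14 above the limit in all lanes, 5 and 2 after background subtraction, 5 and 8 with TMM on the tested probes and 2 and 7 by DESeq2. They were 8 and 36 without shPLEKHA7 replicate 3.

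Replicate numbers are not stated to mark shared infections, and deviations of same-numbered samples correlated at 0.03 and 0.16. With the replicate block 1 member arm was called lower (miR-574-5p), the miR-423 ratio difference was -0.42, and all-probe calls were 9 and 16.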
